A study of Mus musculus with 6 samples.

Results

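The kinesin family of the mouse was followed in RNA of a panobinostat-treated leukemia. Members were the rows of the count table whose Entrez gene ID maps to a protein-coding symbol that starts with Kif and a digit, with Kifc or with Klc, which gave 45 of the 27179 genes in the table. Kinesins are motor proteins that spend ATP to walk along microtubules or to take their ends apart. Some build the mitotic spindle and the bridge that divides daughter cells, and their transcripts are made mainly in G2 and mitosis. Others carry vesicles, mitochondria and RNA through the cytoplasm, and the kinesin light chains couple the kinesin-1 motors to that cargo. The 45 members were sorted by role into 14 mitotic kinesins, 19 transport kinesins (15 motors and 4 light chains) and 12 others. The others act in cilia, at microtubule ends or in ways that are less well known. Roles were set with earlier results of these data known. Kif2a, of the same subfamily as the mitotic Kif2c, was placed with the others.

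The leukemia carries A/E9a, a splice form of RUNX1-RUNX1T1, the fusion found in human acute myeloid leukemia, together with the mutant oncogene NRASG12D, and grew in C57BL/6 mice. Both groups carry these alleles: 3 libraries came from leukemia exposed for 3 days to panobinostat, an inhibitor of histone deacetylases, and 3 from leukemia exposed to vehicle for the same time. GFP+ leukemia cells were sorted from the spleen with propidium iodide to set dead cells aside, and their mRNA was sequenced. The labels give 1 leukemia for all libraries and do not say whether each library is from its own mouse, so p-values measure only the spread between these samples. Libraries are called by the leading number of their column in the table, which gives panobinostat libraries 1, 5 and 6 and vehicle libraries 2, 3 and 4. They held 25794869 to 32571961 counts, so that 1 count was worth 0.0315 to 0.0403 CPM, the unit of levels here, which scales counts to a fixed library size.

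In 10 marker genes of myeloid and progenitor cells, the receptor Kit lay at 163 to 321 CPM in panobinostat libraries and at 210.1 to 221 CPM in vehicle libraries. The factor Spi1 lay at 80.2 to 96.3 CPM in panobinostat libraries and at 60.6 to 72.0 CPM in vehicle libraries. Ptprc, the pan-leukocyte marker CD45, reached at most 4.43 CPM in any library, and the granule gene Mpo and the integrin Itgam stayed lower still. The erythroid list summed to 55221, 26939 and 24949 CPM in panobinostat libraries 1, 5 and 6, against 8332, 8506 and 7772 CPM in vehicle libraries 2, 3 and 4. The megakaryocyte list summed to 151 to 271 CPM in panobinostat libraries, against 25.6 to 46.2 CPM in vehicle libraries. Of the tested genes, 7 of 9 erythroid and 3 of 4 megakaryocyte markers were called higher, against 11.3% of all tested genes. For red pulp macrophages it was 1 of 10 and for the myeloid list 1 of 8, both near the share of all tested genes. All 10 macrophage and all 8 myeloid markers tested had a positive log2 fold change, against 6605 of 12916 tested genes. Their medians were 1.18 and 0.37. The macrophage list summed to 15.6 to 51.5 CPM in panobinostat libraries and 11.8 to 18.6 CPM in vehicle libraries. Lists of T cells, B cells, NK cells, neutrophils and plasmacytoid dendritic cells each summed to at most 11.2 CPM in any library, with no gene called, and no marker of any of these lists had 0 counts throughout. The part of these other transcripts in the kinesin values was not tested. In RNA of many cells, fewer cells of a type and less RNA per cell cannot be told apart.

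The promoters of most mitotic kinesins share a short element. Many genes of G2 and mitosis hold a cell cycle homology region (CHR), a site of the DREAM and MuvB complexes, close to the transcription start, often with CCAAT boxes bound by NF-Y upstream of it. RefSeq windows on GRCm38.p6, from 250 bases before to 50 after each start, existed for 36 of the 45 members, as 40 windows. Kif13b, Kif19a, Kif20a, Kif21b, Kif5a, Kif5b, Kifc2, Kifc3 and Klc2 had no entry. The CHR was searched as TTTGAA and the NF-Y box as CCAAT, both on either strand, and no match overlapped another in the members. TTTGAA stood in 11 of the 12 windows of mitotic kinesins abundant enough to test (91.7%) and in 0 of the 11 windows of tested transport kinesins, against 12.4% of 12239 windows of all tested genes and 17.9% of all 32851 windows. CCAAT stood in 66.7% of the mitotic windows, 54.5% of the transport windows and 38.5% of the windows of tested genes.

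The matches of the mitotic kinesins lay close to the start. Between 30 bases before and 50 after it, a range chosen after the positions were seen, TTTGAA stood in the windows of Kif11, Kif15, Kif18b, Kif20b, Kif22, Kif23, Kif4, Kifc1 and Kifc5b, 9 of 12 (75%), against 2.48% of the windows of all tested genes. Kif18a had no match in its window, and the windows of Kif14 and Kif2c lie 1547 and 3852 bases inside the gene spans used here. Outside the mitotic class, the tested kinesins with TTTGAA were Kif26b and Kif27. Kif27 held 3 matches, all outside that near range, in a window 9798 bases inside its gene span. After panobinostat Kif26b was called lower, and Kif27 was not called, with a log2 fold change of 0.95. The related letters TTTAAA stood in 16.7% of the mitotic windows and 9.19% of the windows of tested genes. The stretches from 110 bases before to 30 after the start are printed for 4 mitotic kinesins at chr19:37376272-37376411 (plus strand), chr9:122950971-122951110 (plus), chr9:61946770-61946909 (minus) and chrX:100625955-100626094 (plus), because they show where the element sits. Letters run 5′ to 3′ along the gene, and capitals mark TTTGAA or its reverse complement TTCAAA, and CCAAT or its reverse complement ATTGG.
Kif11: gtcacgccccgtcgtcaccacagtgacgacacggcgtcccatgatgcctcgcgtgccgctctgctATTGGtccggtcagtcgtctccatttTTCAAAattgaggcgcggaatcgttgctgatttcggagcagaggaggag
Kif15: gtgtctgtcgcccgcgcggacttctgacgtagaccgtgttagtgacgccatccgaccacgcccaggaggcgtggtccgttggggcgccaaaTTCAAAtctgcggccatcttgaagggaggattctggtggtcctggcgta
Kif23: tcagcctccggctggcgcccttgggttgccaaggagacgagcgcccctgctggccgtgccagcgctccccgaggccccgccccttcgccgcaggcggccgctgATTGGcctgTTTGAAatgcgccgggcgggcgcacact
Kif4: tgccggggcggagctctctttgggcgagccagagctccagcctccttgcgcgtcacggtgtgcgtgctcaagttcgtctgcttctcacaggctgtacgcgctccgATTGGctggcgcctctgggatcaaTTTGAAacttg
The same stretches are given for contrast from Kif26b at chr1:178529015-178529154 (plus), a kinesin outside the mitotic class with TTTGAA at its start, and from the transport genes Kif3b at chr2:153291306-153291445 (plus) and Klc4 at chr17:46646051-46646190 (minus), which hold CCAAT but no TTTGAA.
Kif26b: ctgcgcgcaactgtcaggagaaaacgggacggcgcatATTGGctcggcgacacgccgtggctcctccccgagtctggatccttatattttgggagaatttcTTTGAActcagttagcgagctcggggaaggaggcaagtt
Kif3b: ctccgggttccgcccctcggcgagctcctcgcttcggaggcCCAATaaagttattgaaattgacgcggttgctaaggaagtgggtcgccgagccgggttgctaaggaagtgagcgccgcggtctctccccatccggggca
Klc4: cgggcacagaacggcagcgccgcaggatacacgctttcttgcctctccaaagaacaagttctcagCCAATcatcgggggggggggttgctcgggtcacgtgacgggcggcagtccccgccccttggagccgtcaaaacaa
A match describes the letters only. No binding was measured in these libraries.

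**Figure D1:**
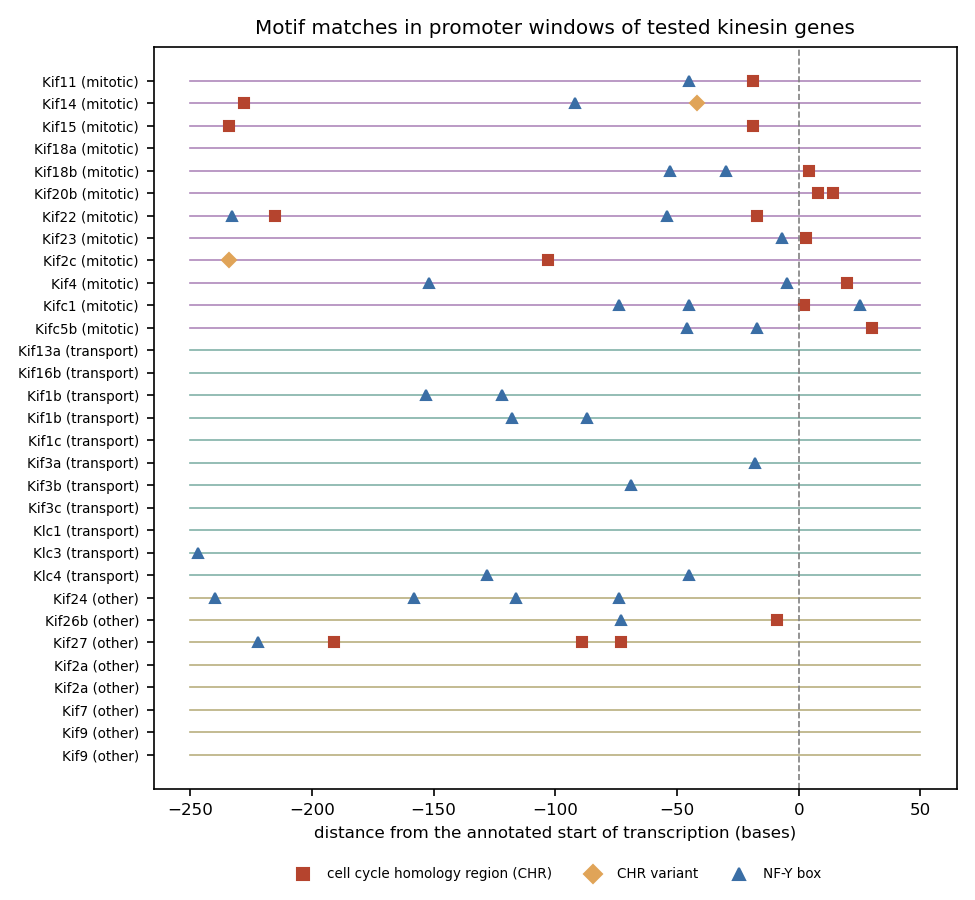
Positions of CHR (squares), TTTAAA variant (diamonds) and NF-Y box (triangles) matches in the promoter windows of tested kinesins; the x axis is the distance from the annotated start in bases and each line is 1 window, named by gene and class on the y axis. TTTGAA matches of the mitotic kinesins gather near the start in 9 of 12 windows, and tested transport kinesins have 0.

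After panobinostat, every tested kinesin placed in the mitotic class was lower, while most transport kinesins did not pass the test. Of the 45 members, 35 were abundant enough to test: 13 mitotic, 15 transport and 7 others. Genes counted as called had an adjusted p below 0.05 in edgeR's quasi-likelihood test with Benjamini-Hochberg adjustment over 12916 tested genes, of which 21.0% were called, 11.3% higher and 9.72% lower. Of the calls 53.8% were higher, and 35.5% when libraries were scaled by their size alone, which moved the median of all genes to -0.10. Among the tested kinesins, 19 were called, 5 higher and 14 lower. All 13 tested mitotic kinesins were called lower, with a median log2 fold change of -0.89 and a range of -1.13 to -0.58, where the median of all tested genes was 0.01. Of the 15 tested transport kinesins, 3 were called higher and 0 lower (12 had an adjusted p above 0.05), with a median of 0.15; 3 of 15 is not far from the 11.3% of all genes. At an unadjusted p under 0.05 there were 5 transport kinesins in either direction. Of the 7 others, 2 were called higher and 1 lower. Kif2a, a relative of Kif2c, was among those called higher. The count of 13 of 13 lower thus holds only with Kif2a outside the mitotic class.

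**Figure D2:**
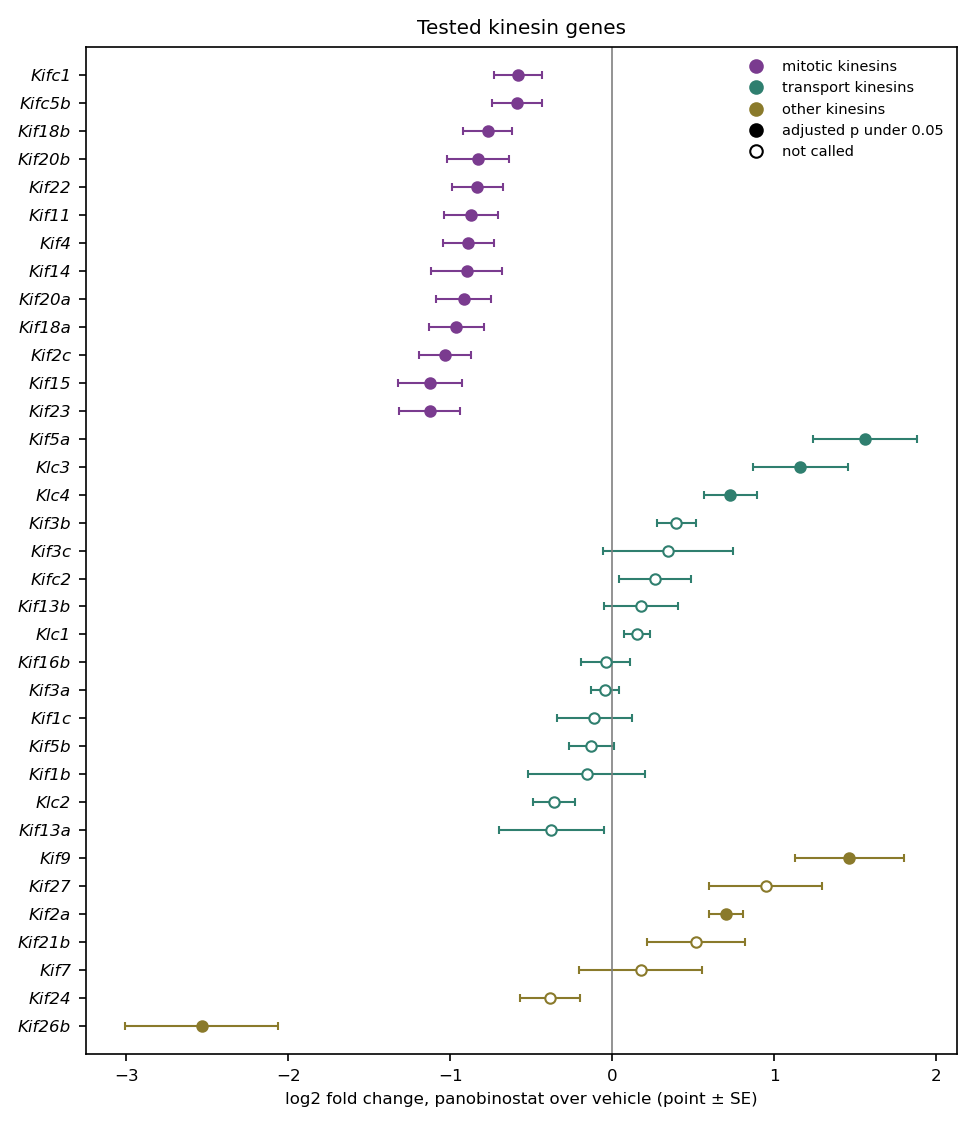
Log2 fold change of panobinostat over vehicle on the x axis for the 35 tested kinesins on the y axis, grouped by class; points are edgeR estimates and bars are 1 standard error, with filled points for genes called. The mitotic kinesins lie between -1.13 and -0.58, and the transport kinesins lie on both sides of 0.

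Groups of libraries separated completely for the mitotic kinesins. For all 13 the highest panobinostat library lay below the lowest vehicle library, a pattern found in the lower direction in 22.7% of all tested genes. Among the transport kinesins 5 of 15 were higher without overlap, against 21.9% of all tested genes, and 1 was lower. The 14 mitotic kinesins summed to 661, 641 and 893 CPM in panobinostat libraries 1, 5 and 6, against 1525, 1186 and 1310.2 CPM in vehicle libraries 2, 3 and 4. The transport kinesins summed to 558, 904 and 827 CPM in panobinostat libraries, against 747, 809 and 794 CPM in vehicle libraries. So the mitotic sums stood apart between the groups and the transport sums overlapped, with panobinostat library 1 the lowest of the 6.

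Cytokinesis kinesins fell together. Kif23, also called MKLP1, is the motor of centralspindlin, which bundles the microtubules of the central spindle, and lies at chr9:61917277-61946810 (GRCm38). Its level was 50.7, 62.3 and 78.9 CPM in panobinostat libraries 1, 5 and 6, against 168, 128 and 123 CPM in vehicle libraries 2, 3 and 4. The log2 fold change was -1.13 ± 0.19 (SE, n = 3 each), the lowest of the mitotic class, with an adjusted p of 0.011 in edgeR's quasi-likelihood test with Benjamini-Hochberg adjustment. Kif20a, or MKLP2, which brings the chromosomal passenger complex to the central spindle (chr18:34624624-34633277), was at 40.0, 44.0 and 58.3 CPM in panobinostat libraries, against 104.9, 81.6 and 82.4 CPM in vehicle libraries. Its change was -0.92 ± 0.17 (edgeR adjusted p 0.014). The span of Kif20a overlaps that of Cdc23 by 4930 bases and that of Brd8 by 240 bases. Cdc23 and Brd8 changed by -0.37 and -0.46 on the log2 scale (edgeR adjusted p 0.038 and 0.040). With an unknown strand setting, reads of these genes and Kif20a may be shared. Kif20b, a relative that acts late in the same step, was at 54.9, 63.0 and 92.9 CPM in panobinostat libraries, against 124, 116 and 134 CPM in vehicle libraries, a log2 fold change of -0.83 ± 0.19 (edgeR adjusted p 0.025). Kif14, which holds the citron kinase at the midbody, was at 24.7, 29.8 and 39.7 CPM in panobinostat libraries, against 74.2, 51.5 and 49.9 CPM in vehicle libraries. Its change was -0.90 ± 0.22 (edgeR adjusted p 0.030). In each of the 4, panobinostat library 1 was the lowest and panobinostat library 6 the highest of the treated libraries.

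Motors that build the bipolar spindle fell by amounts that covered most of the range of the class. Kif11, the Eg5 motor that slides spindle poles apart and the target of kinesin inhibitors tried against cancer, lies at chr19:37376382-37421863. Its level was 119.7, 120.3 and 172 CPM in panobinostat libraries 1, 5 and 6, against 276, 222 and 258 CPM in vehicle libraries 2, 3 and 4. The log2 fold change was -0.87 ± 0.17 (edgeR adjusted p 0.015). Kif15, which can take over from Kif11 in keeping poles apart, was at 45.2, 50.6 and 73.6 CPM in panobinostat libraries, against 141, 106 and 121 CPM in vehicle libraries. It changed by -1.12 ± 0.20 (edgeR adjusted p 0.012), and both groups again stood apart. The ratio of Kif11 to Kif15 per length was 3.91, 3.51 and 3.45 in panobinostat libraries, against 2.88, 3.08 and 3.14 in vehicle libraries, with no overlap. Kifc1, the minus-end motor that gathers spindle poles, was at 78.7, 62.5 and 85.9 CPM in panobinostat libraries, against 131, 99.6 and 109.7 CPM in vehicle libraries, with a log2 fold change of -0.58 ± 0.15 (edgeR adjusted p 0.034). Its near-identical relative Kifc5b was at 55.9, 44.8 and 62.4 CPM in panobinostat libraries, against 94.0, 70.7 and 80.1 CPM in vehicle libraries, a change of -0.59 ± 0.15 (edgeR adjusted p 0.037). Reads of this pair may have been split or shared in counting, so the level of each alone is uncertain. Without the pair, 11 of 11 tested mitotic kinesins were lower, with a median of -0.90.

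Chromosome-moving and microtubule-shortening kinesins completed the class. Kif2c, or MCAK, which takes microtubule ends apart at centromeres (chr4:117159633-117182624), was at 33.5, 29.2 and 41.6 CPM in panobinostat libraries, against 81.6, 61.4 and 70.2 CPM in vehicle libraries. Its log2 fold change of -1.03 ± 0.16 had the smallest adjusted p of the mitotic class, 0.0090 in edgeR's quasi-likelihood test with Benjamini-Hochberg adjustment. Kif18a, which damps chromosome movements at the metaphase plate, was at 14.1, 13.8 and 19.4 CPM in panobinostat libraries, against 34.2, 27.0 and 30.8 CPM in vehicle libraries, a change of -0.96 ± 0.17 (edgeR adjusted p 0.012). Its relative Kif18b, which limits the length of astral microtubules, was at 41.2, 33.6 and 45.1 CPM in panobinostat libraries, against 78.3, 58.2 and 67.8 CPM in vehicle libraries. It changed by -0.77 ± 0.15 (edgeR adjusted p 0.016). Kif4, a chromokinesin that binds chromosome arms and the central spindle, was at 41.4, 37.3 and 52.9 CPM in panobinostat libraries, against 92.4, 71.4 and 79.9 CPM in vehicle libraries, a change of -0.89 ± 0.16 (edgeR adjusted p 0.012). Kif22, the chromokinesin Kid, was at 61.4, 50.2 and 69.6 CPM in panobinostat libraries, against 126, 92.3 and 104 CPM in vehicle libraries. It changed by -0.83 ± 0.16 (edgeR adjusted p 0.015). Kif2b, the remaining member, had 0 counts in all 6 libraries, which allows up to 3 counts, or 0.0946 to 0.121 CPM, in a library. In these 5 detected genes panobinostat library 5 was the lowest treated library, unlike in the cytokinesis group.

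Library 6 was the highest of the panobinostat libraries in all 13 tested mitotic kinesins, and vehicle library 2 the highest vehicle library in 12 of them, the exception being Kif20b. Without vehicle library 2, only Kif23 and Kif2c of the 13 were called, and the same held without vehicle library 4; the other 11 then had edgeR adjusted p of 0.056 to 0.12 with the sign kept, and all 13 kept an unadjusted p under 0.05 in both fits. Calls over all genes fell in the same fits, to 609 of 13093 tested genes without vehicle library 2 and 438 of 13203 without vehicle library 4, against 2715 of 12916 with all libraries. Without vehicle library 3 or panobinostat library 5, 9 were called, and without panobinostat library 1 or 6 all 13 were.

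**Figure D3:**
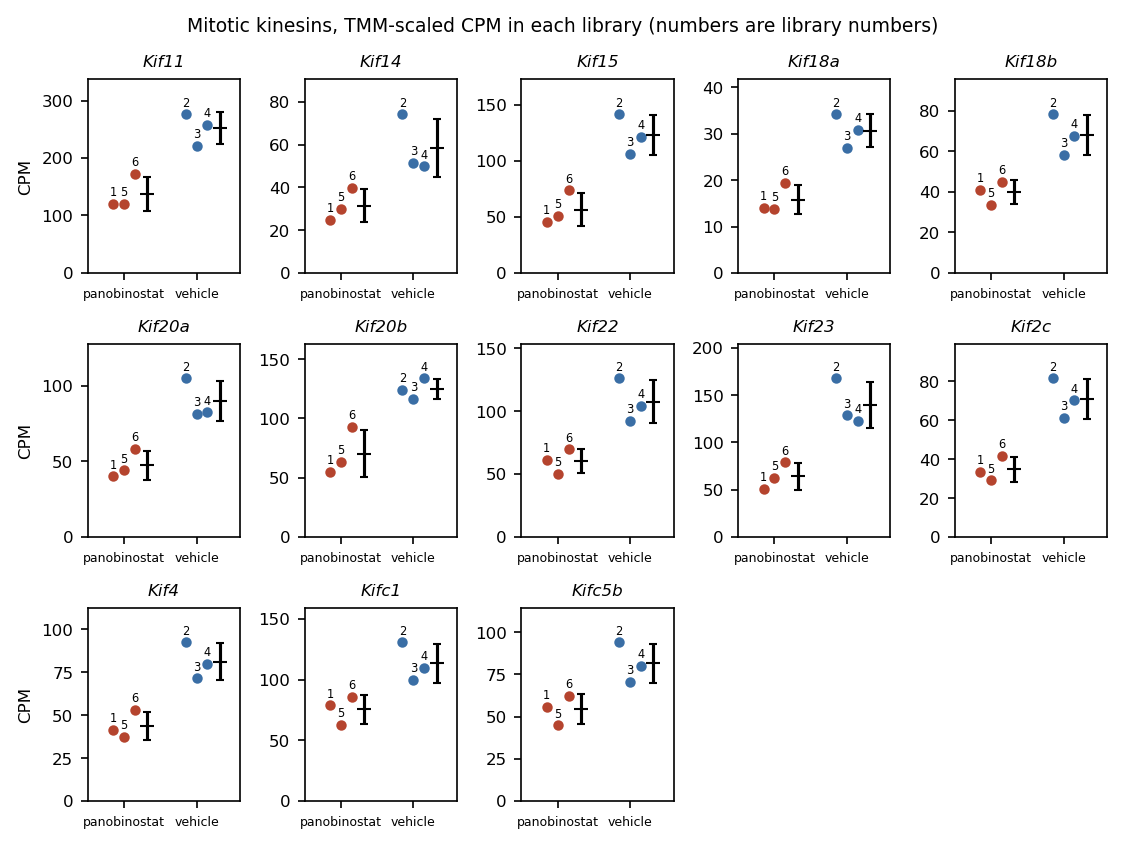
Levels of the 13 tested mitotic kinesins, 1 panel per gene, with TMM-scaled CPM on a linear y axis from 0 and the groups on the x axis; each point is 1 library with its number, panobinostat (red) left of vehicle (blue), and bars beside the points give the group mean ± SD. The panobinostat points lie below every vehicle point in all 13 tested genes.

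Genes that work with these motors fell as well. Of 10 partners of the central spindle and cytokinesis, 9 were called lower and 0 higher, against 9.72% of all tested genes called lower. Their median log2 fold change was -0.89. Racgap1, the partner of Kif23 in centralspindlin, fell by 0.93 ± 0.14 on the log2 scale (edgeR adjusted p 0.0081), and Ect2, the exchange factor it recruits, fell by 1.11 ± 0.16 (edgeR adjusted p 0.0073). Anln, a scaffold of the contractile ring, fell by 1.07 ± 0.18 (edgeR adjusted p 0.011). Of 10 spindle assembly partners, 9 were called lower and 0 higher, against the same 9.72%, with a median of -0.81. Among them, the kinase Aurka changed by -0.84 ± 0.12 (edgeR adjusted p 0.0073), the spindle protein Hmmr by -0.99 ± 0.17 (edgeR adjusted p 0.011) and Tacc3 by -0.83 ± 0.15 (edgeR adjusted p 0.012). Cenpe, the kinetochore kinesin whose symbol lies outside the naming rule, changed by -0.86 ± 0.18 (edgeR adjusted p 0.018), like the members. Without vehicle library 2 these counts were 2 and 1 in place of 9 and 9, and without vehicle library 4 they were 3 and 1.

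The regulators that bind such promoters moved unevenly. Of 17 regulators of G2 and mitotic transcription, 5 were called lower and 0 higher, against 9.72% of all tested genes called lower. Their median was -0.32. Foxm1, an activator of mitotic genes, fell by 0.83 ± 0.16 (edgeR adjusted p 0.015), and Lin9 of the MuvB core fell by 0.95 ± 0.16 (edgeR adjusted p 0.011). Rbl1, the pocket protein p107, fell by 0.54 ± 0.12 (edgeR adjusted p 0.024). None of the 5 was called without vehicle library 2 or 4. Of 12 markers of cycling cells, 5 were called lower and 0 higher, against the same 9.72%, with a median of -0.59. Ccnb1, Cdk1 and Tyms had the smallest p of them, with changes of -0.97 ± 0.14, -0.84 ± 0.13 and -0.72 ± 0.11 (edgeR adjusted p 0.0065, 0.0083 and 0.0092). DESeq2 called 10 of these 12 lower, and 1694 of all 12916 tested genes. Mki67, present in cycling cells of every stage, had a change of -0.41 ± 0.15 and was not called (edgeR adjusted p 0.097). The ratio of the summed mitotic kinesins to the summed cycling markers was 0.185, 0.224 and 0.228 in panobinostat libraries. In vehicle libraries it was 0.279, 0.273 and 0.266, so the groups did not overlap. Such sums weigh the most abundant genes most. Ccnb1, Cdk1 and Tyms changed by amounts within the range of the mitotic kinesins, and Mki67 by less. The part of cell cycle stage in these values was not tested.

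Transport motors showed no common direction. Kif5b, the ubiquitous heavy chain of kinesin-1, was at 142, 198 and 197 CPM in panobinostat libraries 1, 5 and 6, against 196, 197 and 195 CPM in vehicle libraries 2, 3 and 4. Panobinostat library 1 lay below the other 5, and the change of -0.13 ± 0.14 did not pass (edgeR adjusted p 0.53). Kif5a, the heavy chain known from neurons, was at 2.80, 5.12 and 4.16 CPM in panobinostat libraries, against 1.16, 1.10 and 1.82 CPM in vehicle libraries. It rose by 1.56 ± 0.32 on the log2 scale, or 2.95-fold (edgeR adjusted p 0.018), the highest fold change of the family. Kif5c, the other neuronal heavy chain, had 1 count in all libraries together. Per kilobase of exon, Kif5a made up 2.21%, 2.86% and 2.35% of the Kif5 heavy chain transcripts in panobinostat libraries, against 0.672%, 0.635% and 1.05% in vehicle libraries. Kif5b thus remained nearly all of the heavy chain RNA in both groups. The call of Kif5a was lost without any single vehicle library (edgeR adjusted p 0.053 to 0.078). Its span overlaps Dctn2 by 87 bases, a gene at a mean of 181 CPM that changed by 0.42 ± 0.12 (edgeR adjusted p 0.053), and reads of the overlap may be shared.

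The heterotrimeric kinesin-2 motor, which carries cargo in cytoplasm and cilia, changed little in Kif3a, while Kif3b stood higher but missed the threshold. Kif3a was at 51.0, 47.9 and 48.8 CPM in panobinostat libraries, against 49.6, 48.3 and 54.5 CPM in vehicle libraries, a log2 fold change of -0.04 ± 0.09 (edgeR adjusted p 0.75). Its partner Kif3b was at 62.0, 77.1 and 83.5 CPM in panobinostat libraries, against 56.5, 56.2 and 56.4 CPM in vehicle libraries. The groups of Kif3b did not overlap, and its change of 0.40 ± 0.12 missed the threshold (edgeR adjusted p 0.054) but passed it in DESeq2 (adjusted p 0.027). Kif3c had a change of 0.35 ± 0.40 with overlapping groups (edgeR adjusted p 0.57). Kifap3, the adaptor that links this motor to cargo, changed by -0.30 ± 0.30 (edgeR adjusted p 0.50). Kif17, the homodimeric relative, had 3 counts in all.

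Kinesin-3 motors, which carry vesicles and endosomes, varied more between the panobinostat libraries than between the groups. Kif1b, a carrier of mitochondria and vesicles, was at 96.6, 291 and 237 CPM in panobinostat libraries, against 195, 262 and 241 CPM in vehicle libraries, a change of -0.16 ± 0.36 (edgeR adjusted p 0.78). Kif13a, an endosome motor, was at 23.1, 65.2 and 52.1 CPM in panobinostat libraries, against 60.01, 60.7 and 61.3 CPM in vehicle libraries (change -0.38 ± 0.33, edgeR adjusted p 0.44). Kif1c, Kif13b and Kif16b had changes of -0.11 ± 0.23, 0.18 ± 0.23 and -0.04 ± 0.15, and none was called. Panobinostat library 1 was the lowest of the 6 libraries in 7 of the 15 tested transport kinesins, which were Kif13a, Kif13b, Kif16b, Kif1b, Kif1c, Kif3c and Kif5b. It was also the library with the highest erythroid sum. Without it, Kif3b and Kif13b were called higher (edgeR adjusted p 0.0053 and 0.034) and 5 transport kinesins were called higher in place of 3. Kif1a, best known from axons, had 9 counts in all libraries together. Kifc2 and Kifc3, minus-end motors, stayed low: Kifc2 had a mean of 5.37 ± 1.41 CPM in panobinostat libraries and 4.48 ± 0.073 CPM in vehicle libraries (SD, n = 3 each), and Kifc3 had 28 counts in all.

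The light chains, which tie kinesin-1 to cargo, shifted in their mixture. Klc1, the most abundant one, was at 68.9, 70.2 and 70.9 CPM in panobinostat libraries, against 60.3, 64.0 and 64.4 CPM in vehicle libraries. Its groups did not overlap, but the change of 0.15 ± 0.08 was not called (edgeR adjusted p 0.20). Klc4 was at 26.8, 22.6 and 17.8 CPM in panobinostat libraries, against 13.3, 14.2 and 13.0 CPM in vehicle libraries, and rose by 0.73 ± 0.16 (edgeR adjusted p 0.023). Klc3, known for its part in the sperm tail, was at 8.12, 4.96 and 4.13 CPM in panobinostat libraries, against 2.46, 2.94 and 2.30 CPM in vehicle libraries, and rose by 1.16 ± 0.29 (edgeR adjusted p 0.032). Klc2 was at 13.5, 11.4 and 12.1 CPM in panobinostat libraries, against 17.4, 14.97 and 15.3 CPM in vehicle libraries. Its change of -0.36 ± 0.13 was not called (edgeR adjusted p 0.089), though its groups stood apart too. Klc3 and Klc4 were thus higher and ordered among the panobinostat libraries as the erythroid sum was, highest in library 1 and lowest in library 6; the part of erythroid RNA was not tested. Both calls were lost without any 1 vehicle library (edgeR adjusted p 0.062 to 0.13) and without panobinostat library 5 (edgeR adjusted p 0.0504 for Klc3 and 0.0506 for Klc4). Klc3 overlaps Ercc2, a gene at a mean of 44.6 CPM with a change of -0.14, by 1255 bases, and Klc4 overlaps Mrpl2 by 18 bases.

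Per kilobase of exon, Klc1 made up 49.0%, 54.9% and 59.2% of the light chain transcripts in panobinostat libraries 1, 5 and 6, against 58.0%, 59.5% and 61.2% in vehicle libraries 2, 3 and 4. Klc4 made up 32.6%, 30.3% and 25.5% in panobinostat libraries, against 21.9%, 22.6% and 21.2% in vehicle libraries. Klc2 made up 9.48%, 8.79% and 9.98% in panobinostat libraries, against 16.5%, 13.7% and 14.3% in vehicle libraries. The shares of Klc2, Klc3 and Klc4 did not overlap between the groups and those of Klc1 did. Klc3 stood at 8.88%, 5.97% and 5.31% in panobinostat libraries, against 3.63%, 4.21% and 3.35% in vehicle libraries.

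**Figure D4:**
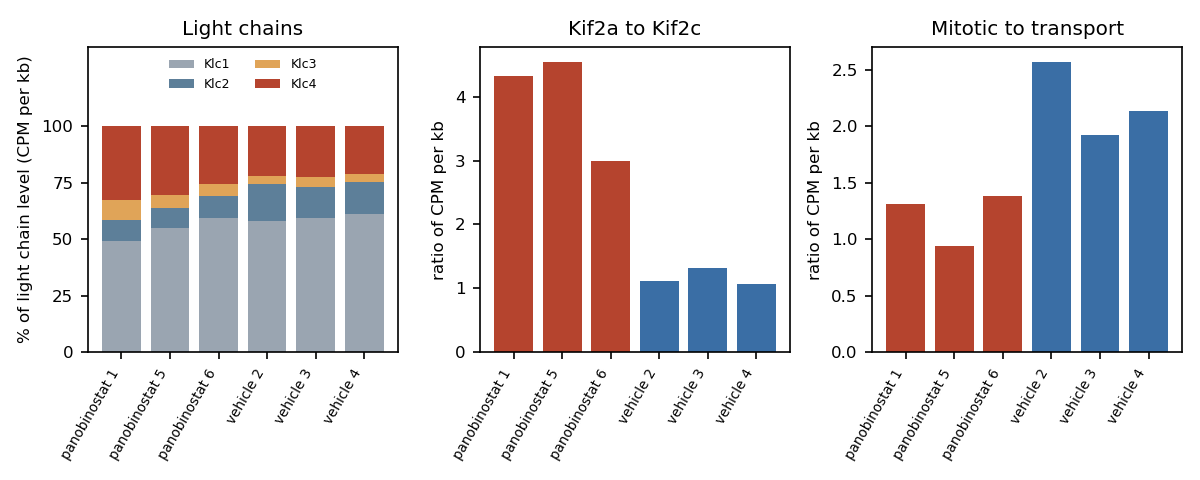
Shares of the 4 light chains (stacked bars), the ratio of Kif2a to Kif2c and the ratio of summed mitotic to summed transport kinesins, all in CPM per kilobase of exon; the y axes give percent or ratio and the x axes the 6 libraries, panobinostat left of vehicle. Klc4 holds 25.5% to 32.6% of light chain transcripts in panobinostat libraries and 21.2% to 22.6% in vehicle libraries.

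Of 16 tested cargo adaptors and motor regulators, 5 were called higher, against 11.3% of all tested genes, and 2 lower, a share near the 9.72% of all tested genes. Their median log2 fold change was 0.21. Arl8b, a lysosomal GTPase that recruits kinesin-1, fell by 0.51 ± 0.08 (edgeR adjusted p 0.0081). Its relative Arl8a, chosen after its values were seen, rose by 0.45 ± 0.10 (edgeR adjusted p 0.020). Fyco1, an adaptor of late endosomes, rose by 0.73 ± 0.13 (edgeR adjusted p 0.013), and Mapk8ip3, a JIP3 scaffold on kinesin-1, rose by 0.41 ± 0.08 (edgeR adjusted p 0.014). Map7, a microtubule protein that recruits kinesin-1, was chosen after its values were seen: it was at 18.4, 6.73 and 6.75 CPM in panobinostat libraries, against 1.97, 2.55 and 1.61 CPM in vehicle libraries, or 5.19-fold higher (edgeR adjusted p 0.014). Without panobinostat library 1 it was 3.30-fold higher, and its call was lost without vehicle library 2 or 4 (edgeR adjusted p 0.069 and 0.074). Without vehicle library 4 none of the list was called higher. Dynein and dynactin, which walk the other way, had 2 called higher and 1 lower of 23 tested, a smaller share than the 21.0% of all tested genes called, with a median of 0.08. Dctn4 and Dync1i2 rose by 0.29 ± 0.07 and 0.28 ± 0.08 (edgeR adjusted p 0.035 and 0.044), calls that were lost without any 1 vehicle library and without panobinostat library 5 or 6. Spdl1, which brings dynein to kinetochores in mitosis, fell by 0.92 ± 0.16 (edgeR adjusted p 0.011).

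Kif2a and Kif26b stood out among the remaining kinesins. Kif2a, a microtubule depolymerase of the same subfamily as Kif2c that also shapes neuronal axons (chr13:106958996-107022355), was at 212, 194 and 182 CPM in panobinostat libraries 1, 5 and 6, against 133, 118 and 110.3 CPM in vehicle libraries 2, 3 and 4. It rose 1.63-fold, a log2 change of 0.70 ± 0.11 (edgeR adjusted p 0.0080), and without vehicle library 4 the adjusted p was 0.054. The ratio of Kif2a to Kif2c per length was 4.32, 4.55 and 2.99 in panobinostat libraries, against 1.11, 1.32 and 1.07 in vehicle libraries. These depolymerases were thus near parity in vehicle libraries and far apart after panobinostat. Among panobinostat libraries Kif2a too was highest in library 1 and lowest in library 6. Kif26b, an atypical kinesin that binds microtubules without ATPase activity (chr1:178529125-178932857), was at 6.85, 1.85 and 5.86 CPM in panobinostat libraries, against 37.9, 18.2 and 28.9 CPM in vehicle libraries. It fell 5.79-fold, a log2 change of -2.53 ± 0.47 (edgeR adjusted p 0.014), lower than any other member, and the call was lost without vehicle library 2 or 4 (edgeR adjusted p 0.063 and 0.062).

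Cilium-related kinesins were mostly low. Kif9, a motor of motile cilia and flagella, was at 3.33, 1.81 and 1.92 CPM in panobinostat libraries, against 0.679, 0.851 and 1.03 CPM in vehicle libraries. It rose by 1.46 ± 0.34 (edgeR adjusted p 0.025), and the call was lost without any 1 vehicle library (edgeR adjusted p 0.079 to 0.095). Kif27 was near 1 CPM, with a change of 0.95 ± 0.35 that was not called (edgeR adjusted p 0.094), and Kif7, a regulator of Hedgehog signalling, changed by 0.18 ± 0.38 (edgeR adjusted p 0.77). Kif24, which restrains cilium growth at centrioles, was at 15.2, 17.1 and 20.1 CPM in panobinostat libraries, against 28.6, 19.4 and 20.4 CPM in vehicle libraries (change -0.39 ± 0.19, edgeR adjusted p 0.18). Outside the cilium group stood Kif21b, a motor of neurons and T cells that slows microtubule growth. It was at 62.4, 159.7 and 121 CPM in panobinostat libraries, against 75.0, 90.1 and 74.2 CPM in vehicle libraries. Panobinostat library 1 lay below and the other panobinostat libraries above the vehicle range; the change of 0.52 ± 0.30 was not called (edgeR adjusted p 0.26), but was called at 0.82 without that library (edgeR adjusted p 0.0082). Of the cilium group, Kif6 had 0 counts in all libraries and Kif19a had 7. Outside it, Kif12 and Kif21a had 0 counts in all libraries and Kif26a had 1.

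**Figure D5:**
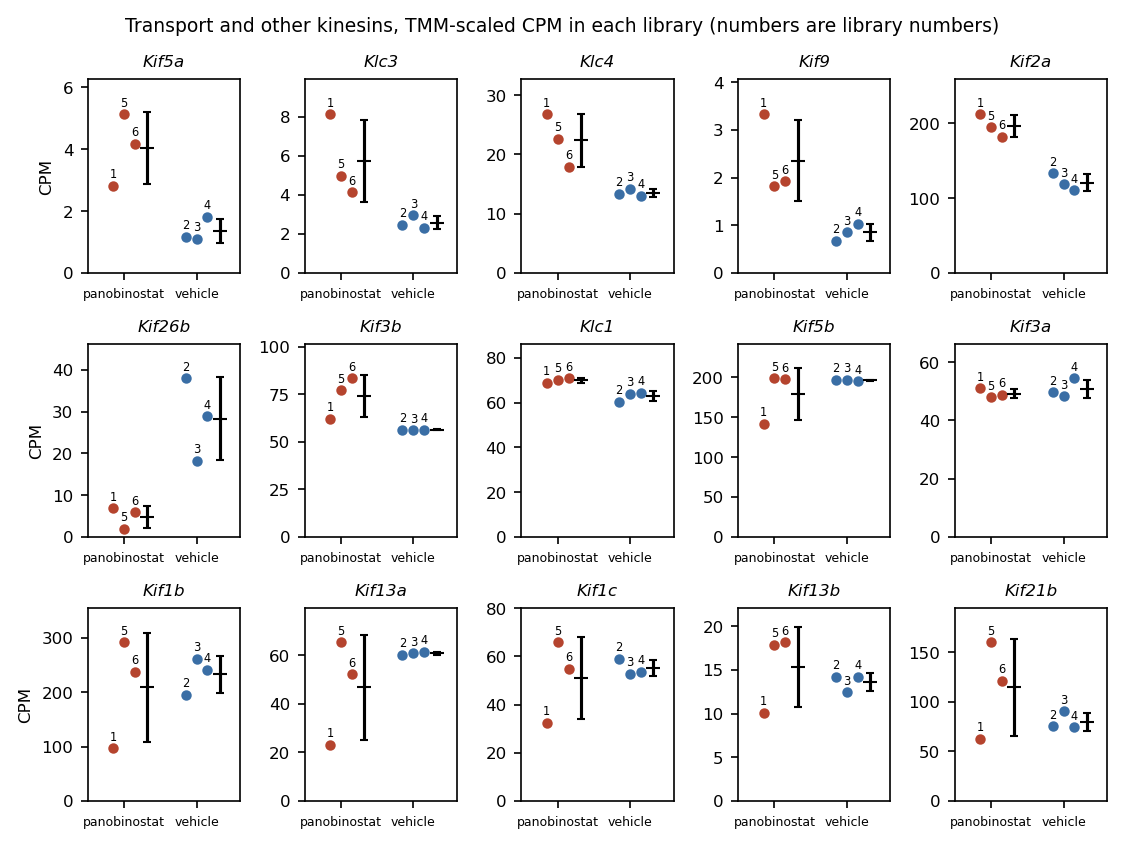
Levels of 15 transport and other kinesins, 1 panel per gene, with TMM-scaled CPM on a linear y axis from 0 and the groups on the x axis; each point is 1 library with its number, panobinostat (red) left of vehicle (blue), and bars beside the points give the group mean ± SD. Kif2a, Kif5a, Kif9, Klc3 and Klc4 lie higher in panobinostat libraries, and Kif26b lies lower.

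Neuron-enriched genes beside Kif5a gave few reads. Of 14 such cytoskeleton and synapse genes, 2 could be tested, and both were called higher, against 11.3% of all tested genes. Map1a reached at most 0.496 CPM in vehicle libraries, and it passed the filter only with the panobinostat libraries counted. The count of 2 is therefore no result about the list. Map1a was at 2.67, 29.3 and 8.07 CPM in panobinostat libraries, against 0.420, 0.496 and 0.206 CPM in vehicle libraries, a log2 fold change of 5.14 ± 0.95 (edgeR adjusted p 0.014) that was 3.83 without panobinostat library 5. Mapt changed by 1.33 ± 0.33 (edgeR adjusted p 0.030) and was highest in panobinostat library 1. Both calls were lost without vehicle library 2 or 4 (edgeR adjusted p 0.069 to 0.11), and that of Mapt also without vehicle library 3 (edgeR adjusted p 0.092). The list summed to 33.1, 42.1 and 24.7 CPM in panobinostat libraries, against 9.47, 7.16 and 8.64 CPM in vehicle libraries, and 4 of its genes had 0 counts in every library.

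The order of levels within the family was not the same in both groups. Per kilobase of exon, the highest kinesins in panobinostat libraries were Kif2a at 30.7 ± 2.35 CPM per kb, Kif5b at 22.4 ± 4.07, Kifc1 at 22.2 ± 3.50 and Kif11 at 18.4 ± 4.03 (SD, n = 3 each), of which the last 3 lay within their spread of each other. In vehicle libraries they were Kif11 at 33.7 ± 3.70 CPM per kb, Kifc1 at 33.2 ± 4.65 and Kif5b at 24.5 ± 0.125, with Kif11 and Kifc1 within their spread. Kif2a came eighth in vehicle libraries, at 18.9 ± 1.81 CPM per kb. Reads of Kifc1 and Kifc5b may have been split or shared, so the places of this pair, and with them that of Kif2a, are uncertain. Tested kinesins at the low end of vehicle libraries were Kif27 at 0.120 ± 0.0409 CPM per kb, Kif7 at 0.183 ± 0.0358, Kif5a at 0.195 ± 0.0568 and Kif9 at 0.198 ± 0.0407, of which the last 3 lay within their spread. The ratio of summed mitotic to summed transport kinesins per length was 1.32, 0.941 and 1.39 in panobinostat libraries, against 2.58, 1.93 and 2.13 in vehicle libraries, without overlap.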

How the data were processed

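RNA of 6 sorted leukemia libraries was compared between 3 panobinostat and 3 vehicle samples. The deposited values are whole-number counts per gene by Entrez gene ID, not normalized. The submitters' processing notes name mm10, HISAT2 2.1.0, featureCounts (Subread 2.0.0), cutadapt 2.1, limma, FastQC 0.11.6 and bcl2fastq 2.17.1.14. For the authors' annotation, strand setting and treatment of reads with several placements, the sources used here give nothing. Libraries were grouped by the word treated or control in their column name, and 0 columns were left unused. RefSeq for GRCm38, the assembly of mm10, named 25275 genes by Entrez gene ID, and 1904 were left unnamed.

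Genes were filtered with filterByExpr by group, scaled by TMM factors and compared with edgeR's quasi-likelihood test (edgeR 4.0.16, R 4.3.3) with Benjamini-Hochberg adjustment over 12916 genes. Standard errors are approximate, the size of the log2 fold change over the root of F. TMM-scaled CPM served as levels, and levels per length divide them by the summed exon length in GENCODE vM21. The common biological coefficient of variation was 0.195, and no pair of libraries agreed within sampling noise. With 3 against 3, exact permutation gives no p below 0.1, and floors cover counting error only. Alternatives were DESeq2 1.42.0, limma-voom (limma 3.58.1), 3 other scalings, 2 other filters, robust dispersion and leaving out each library.

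Members, roles and the 16 gene lists were chosen with earlier results of these data known. Values in every library are given for members called, for Kif11, Kif20a, Kif23, Kif2c, Kif5b, Kif3a, Kif1b and Klc1, and for Kif3b, Kif13a, Klc2, Kif24 and Kif21b, chosen after their values were seen. Up to 3 called genes with the smallest p were named per partner list, plus Foxm1, Cenpe, Kifap3 and Mki67. Hbb-bt of the erythroid list was not analysed here.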

Additional observations from a re-analysis of the deposited data

How the results depend on the processing

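The direction of every called kinesin, and of the median of the mitotic and of the transport kinesins, was kept under all 14 alternatives. All 13 tested mitotic kinesins were called lower with DESeq2, limma-voom, 3 other scalings, 2 other filters and robust dispersion. Genes called among all tested came to 3566 with DESeq2 and 3200 with library size alone, and to 438 to 4056 when 1 library was left out. Leaving out 1 library gave 2 to 13 mitotic kinesins lower and 0 higher, 0 to 5 transport kinesins higher and 0 to 1 lower, 0 to 3 others higher and 0 to 1 lower, and medians of -1.08 to -0.79 for mitotic and 0.03 to 0.17 for transport kinesins. With library size alone the median of all genes moved to -0.10, 1135 calls were higher and 2065 lower, against 1460 and 1255, and 1 transport kinesin, Klc2, was lower. No paired analysis was possible because the columns carry none of the labels' replicate numbers. Genes under about 1 CPM rest on few counts, so changes in the kinesins with under 30 counts were not detectable at this depth.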
